A study of Danio rerio with 2 samples.

Results

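The AP-1 family genes described here are 9 loci of the 1287 genes that the authors listed as different between wild-type (WT) and ezh2 mutant zebrafish embryos. They are the rows annotated as a Fos, Fos-related antigen, Jun, AP-1 or ATF transcription factor: fosab, fosl1a, fosl2, fosaa, junba, junbb, jdp2b, batf and atf3. Messenger RNA was sequenced from whole embryos of the AB background at 28 hours post fertilization, in 1 WT library and 1 library of ezh2-/- embryos. The labels give neither the ezh2 allele nor the number of embryos in a library. Ezh2 is the enzyme of Polycomb repressive complex 2 that methylates histone H3 on lysine 27. No row of the table was named ezh2, which leaves the genotype unchecked at the mutated gene.

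AP-1 is a dimer of basic leucine zipper (bZIP) proteins. Fos proteins bind DNA only as partners of Jun or related proteins, whereas Jun proteins can also pair with each other. Jdp2, Batf and Atf3 pair with Jun proteins as well and are known in mammals mostly as repressors or modulators of AP-1 sites. Many fos and jun genes are immediate-early genes, transcribed within minutes of growth factors, wounding or cell stress, and in zebrafish junba, junbb and fosl1a are known from studies of regenerating tissue.

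Each of the 9 genes had more reads in the mutant library than in the WT library, from 3.26-fold for jdp2b to 27.2-fold for fosab. The Fos genes spanned nearly this whole range, and fosab was the sixth most abundant of the 9 in the WT library and the second in the mutant library. With 1 library per genotype, every difference below is between libraries, has no replicate check and carries no p-value. Folds are ratios of raw read counts on the scale of the authors' own fold changes, and intervals in brackets are exact 95% intervals that cover counting error only. FPKM is the authors' read density per kilobase of transcript, scaled to library size, and it is the quantity used to compare one gene with another. In RNA from whole embryos, more cells that express a gene and more RNA per cell cannot be told apart.

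The table holds only genes that passed the authors' thresholds, which sets what counts of members can show. Every FDR was at most 0.00996 and every absolute log2 fold change at least 1 in the authors' deposited table. A listed gene had 0 to 29755 WT reads (median 122) and 1 to 29568 mutant reads (median 196). Library totals were not analysed here, so the depth is unknown. Of all listed genes, 68.1% had a mutant level at least 2-fold the WT level, and 9 of the 9 AP-1 family genes were. At 4-fold or more were 7 of the 9, against 22.8% of listed genes. At 10-fold or more were 3 of the 9 (fosab, fosl1a and batf), against 7.85% of listed genes, and at 20-fold or more were 2 of the 9 (fosab and fosl1a), against 2.56%. batf, with 3 WT reads, was under 10-fold with 2 or 5 counts added, from FPKM with 0.1 added and in the authors' deposited table. In each of these settings fosl1a was under 20-fold, which leaves 2 of the 9 at 10-fold and 1 at 20-fold. The share of all listed genes was not computed in these settings, so the lowered counts have no background. None of the 9 was lower. The median log2 fold change of the 9 genes was 2.42, beside 1.31 over all listed genes and 1.61 over the 876 higher ones.

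**Figure D1:**
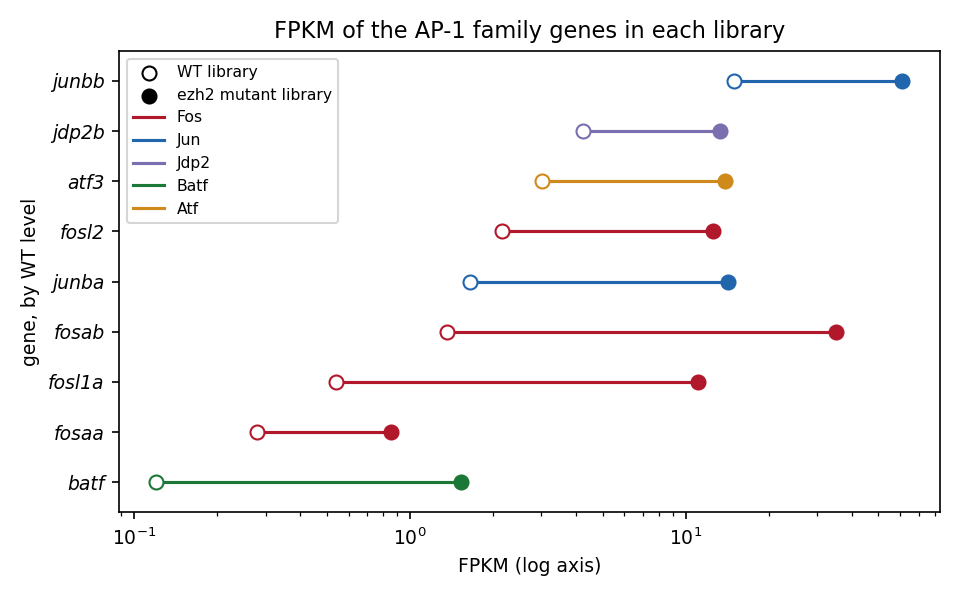
FPKM of each AP-1 family gene (log axis) in the WT library (open points) and the ezh2 mutant library (filled points), 1 value per library, with genes ordered by WT level and coloured by subfamily. All 9 filled points lie to the right of their open points; the longest line is that of fosab, from 1.36 to 35.1 FPKM, and junbb is the highest gene in both libraries.

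Among the Fos genes, fosab (gene32571) encodes a c-Fos protein, the founding member of the family. It had 43 reads (1.36 FPKM) in the WT library and 1159 reads (35.1 FPKM) in the mutant library. The difference was 27.2-fold (20.1 to 37.8), and by log2 fold change fosab was the 31st largest increase among the 1287 listed genes. The fold from FPKM was 25.8, within the counting interval. In FPKM it ranked 814th of the listed genes in the WT library and 79th in the mutant library.

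The gene fosl1a (gene25236) encodes Fra-1, a Fos protein that lacks the strong transactivation domain of c-Fos. It had 34 reads (0.538 FPKM) in the WT library and 675 reads (11.1 FPKM) in the mutant library, 20.1-fold more (14.2 to 29.2). The fold of fosab was 1.36 times that of fosl1a (0.831 to 2.20), so the counts do not order the 2 genes.

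The gene fosl2 (gene29046) encodes Fra-2, the other Fos-related antigen. It had 216 reads (2.15 FPKM) in the WT library and 1149 reads (12.6 FPKM) in the mutant library. Its fold of 5.37 (4.64 to 6.24) was lower than those of fosab and fosl1a: the fold of fosab was 5.06 times (3.60 to 7.27) and that of fosl1a 3.73 times (2.55 to 5.60) the fold of fosl2. In the WT library fosl2 stood 1.58 times above fosab in FPKM, and in the mutant library fosab stood 2.78 times above fosl2.

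A second c-Fos-like locus was fosaa (gene29231), the paralogue of fosab. It had 21 reads (0.279 FPKM) in the WT library and 73 reads (0.856 FPKM) in the mutant library, 3.51-fold more (2.14 to 6.01). The paralogues differed: the fold of fosab was 7.73 times that of fosaa (4.13 to 14.1). The fosab level was 4.87 times the fosaa level in the WT library and 41.0 times in the mutant library, both in FPKM. Of the 9 genes, fosaa was the least abundant in the mutant library.

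The Jun genes in the table both encode JunB proteins, dimer partners of Fos with weaker activation than c-Jun. junba (gene1034) had 50 reads (1.66 FPKM) in the WT library and 462 reads (14.2 FPKM) in the mutant library, 9.33-fold more (6.96 to 12.8). Its paralogue junbb (gene3364) had 569 reads (14.9 FPKM) in the WT library and 2543 reads (61.2 FPKM) in the mutant library, 4.51-fold more (4.12 to 4.95). The fold of junba was 2.07 times that of junbb (1.52 to 2.87). junbb was the most abundant of the 9 genes in both libraries, 9.02 times above junba in FPKM in the WT library and 4.30 times in the mutant library. Similar paralogues may share reads, so how reads were divided between junba and junbb, and between fosab and fosaa, is uncertain.

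The Jun partners outside the Fos subfamily were higher as well. jdp2b (gene32574) encodes Jun dimerization protein 2, a bZIP protein that lowers transcription at AP-1 sites in mammalian cells. It had 93 reads (4.24 FPKM) in the WT library and 300 reads (13.3 FPKM) in the mutant library, 3.26-fold more (2.57 to 4.16), the smallest count fold of the 9. The counts do not order it against fosaa, whose fold was 1.08 times that of jdp2b (0.616 to 1.95), and the FPKM fold of fosaa, 3.07, was below the 3.14 of jdp2b. atf3 (gene32355), a stress-induced member of the ATF/CREB family, had 137 reads (3.02 FPKM) in the WT library and 580 reads (13.9 FPKM) in the mutant library, 4.28-fold more (3.54 to 5.19). The folds of atf3 and junbb were close, with a ratio of 0.947 (0.767 to 1.17).

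The least counted member was batf (gene16760), a short bZIP protein known in mammals for roles in lymphocytes. It had 3 reads (0.12 FPKM) in the WT library and 39 reads (1.53 FPKM) in the mutant library. The ratio was 13.1 with an interval of 4.17 to 66.4, so the 3 WT reads leave its size poorly fixed. The interval overlaps those of the other members except jdp2b, whose upper bound of 4.16 lies just under it. The fold of junba, for example, was 0.711 times that of batf (0.136 to 2.37).

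**Figure D2:**
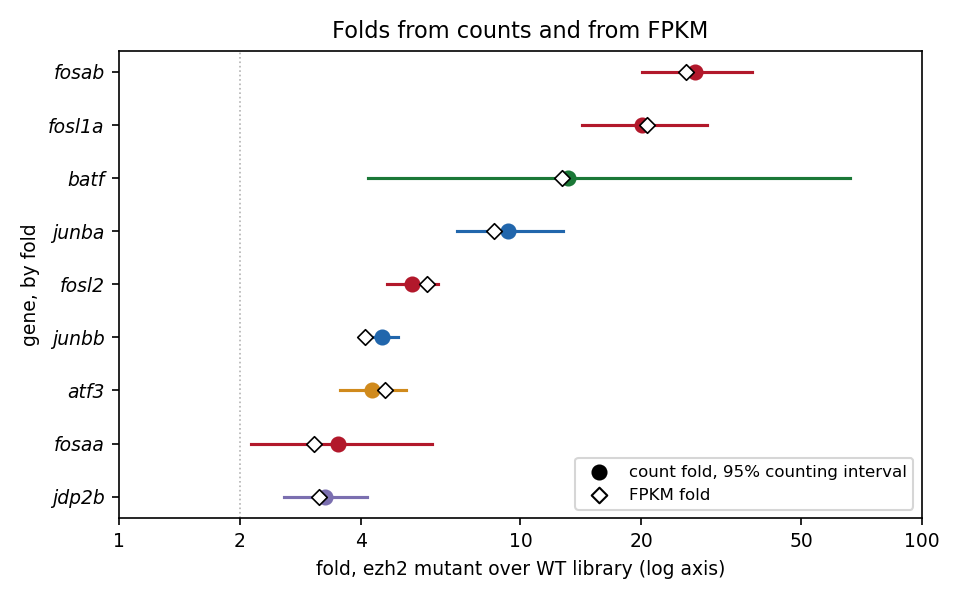
Fold of each AP-1 family gene, mutant over WT library, from read counts (filled points, with bars for the exact 95% counting interval) and from FPKM (open diamonds), on a log axis with a dotted line at 2-fold. The intervals of fosab and fosl1a overlap each other and lie above those of fosl2, junba, junbb, atf3, fosaa and jdp2b. The batf interval spans 4.17 to 66.4.

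Counts and FPKM gave like folds. The ratio of reads per unit of FPKM between the mutant and the WT library ran from 0.908 for fosl2 to 1.13 for fosaa over the 9 genes. Over 391 listed genes with at least 200 reads in both libraries its median was 0.978, with 5th and 95th percentiles of 0.831 and 1.08. fosaa and junbb (1.09) lay above that range; for junbb the FPKM fold of 4.097 fell just under the counting interval of 4.12 to 4.95. In the authors' deposited table the log2 fold changes of the 9 genes ran from 1.69 for jdp2b to 4.71 for fosab, and the value of batf there, 3.13, was the one farthest from the value computed here, 3.51. The FDR in the authors' deposited table, which compares these libraries and not the genotypes, was listed as 0 for fosab, fosl1a, fosl2, junba and junbb and was highest for fosaa, at 0.00108.

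The make-up of the family differed between the libraries. Summed over the 9 genes, FPKM was 28.3 in the WT library and 163.9 in the mutant library, a 5.79-fold difference, and summed reads were 1166 and 6980, 6.05-fold more (5.68 to 6.44). junbb held 52.8% of the summed FPKM in the WT library and 37.3% in the mutant library. fosab held 4.80% and 21.4%. The 4 Fos genes together held 15.3% of the summed FPKM in WT and 36.4% in mutant embryos, and the 2 Jun genes 58.6% and 46.0%. Jdp2, Batf and Atf genes together held 26.1% and 17.6%. These shares come from within each library and do not depend on the scale between libraries, but they leave out every AP-1 gene that the authors did not list.

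Set against each other, the summed FPKM of the 4 listed Fos genes was 4.33 in the WT library and 59.7 in the mutant library. That of the 2 listed Jun genes, both JunB, was 16.6 and 75.4. The ratio of these 2 sums was 0.261 in the WT library and 0.791 in the mutant library. Fos and Jun genes that were not listed, jun and jund among them, are in neither sum, so the balance of all Fos to all Jun genes is unknown. Most of the added level of the listed Fos genes was fosab, whose FPKM was 33.7 higher in the mutant library. The difference was 10.6 for fosl1a, 10.5 for fosl2 and 0.577 for fosaa. Without fosab, the other 8 genes had 1123 WT reads and 5821 mutant reads, 5.24-fold more (4.91 to 5.59). Their summed FPKM was 26.9 in the WT library and 128.8 in the mutant library, a 4.78-fold difference, which lies under that counting interval.

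**Figure D3:**
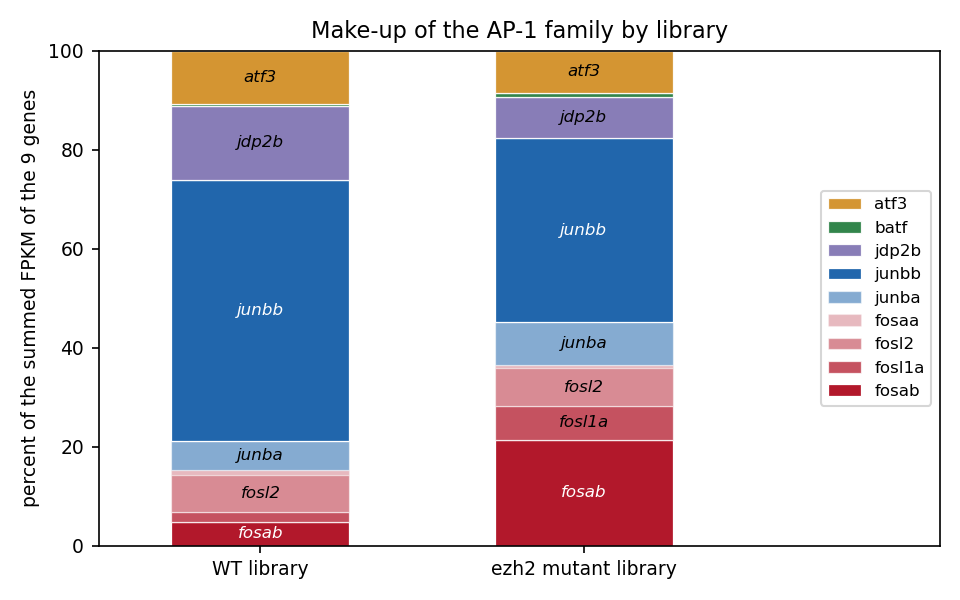
Share of each AP-1 family gene in the summed FPKM of the 9 genes, stacked to 100 percent, for the WT and the ezh2 mutant library. fosab takes 4.80% of the WT bar and 21.4% of the mutant bar, while junbb takes 52.8% and 37.3%.

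The order of levels differed between the libraries. In the WT library the FPKM order from the top was junbb, jdp2b, atf3, fosl2, junba, fosab, fosl1a, fosaa and batf. In the mutant library it was junbb, fosab, junba, atf3, jdp2b, fosl2, fosl1a, batf and fosaa. In that library junba, atf3, jdp2b, fosl2 and fosl1a lay close together, between 11.1 and 14.2 FPKM. With 1 library per genotype, the order of such neighbours has no spread to be judged against.

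The table holds only some of the genes of these subfamilies. RefSeq (assembly GRCz12tu) annotates 28 protein-coding zebrafish genes with a fos, jun, jdp2, batf or atf symbol, of which 9 were listed. By subfamily these were 4 of 7 Fos, 2 of 5 Jun, 1 of 2 Jdp2, 1 of 3 Batf and 1 of 11 Atf genes. The batf locus is counted here by its product name. The share of all annotated coding genes that were listed was not computed, so these counts have no background. jun, jund, june, fosb, fosl1b and fosl2l were among those not listed and were not analysed here. In the same annotation a batf gene lies directly between fosab and jdp2b. The listed batf locus, identified by its product name, carries the identifier gene16760, which does not lie between those of fosab (gene32571) and jdp2b (gene32574). Whether it is that gene was not established. Among the 5 coding genes on each side of fosl1a, fosl2, fosaa, junba and junbb, 0 were matched to a listed gene, and beside atf3 the 1 match was hivep2a. A neighbour that received no symbol would be missed. The share of all coding genes matched in this way was not computed, so these matches have no background either.

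All 9 genes carry the gene ontology term for sequence-specific DNA-binding transcription factor activity, and most other genes with that term were lower in the mutant library. The table holds 96 genes with the term, 24 higher and 72 lower, a split that runs opposite to that of all listed genes. Of the 87 that are not AP-1 family genes, 15 (17.2%) were higher and 72 (82.8%) lower. Their median log2 fold change was -1.22. At least 4-fold higher were 9 of the 96, and 7 of these were AP-1 family genes. With at least 50 reads in one library, fosab, fosl1a and junba had the largest increases of all genes with the term. The next was irf1b, an interferon-response factor, with 20 WT and 132 mutant reads, 6.67-fold more (4.15 to 11.3). junba and junbb are also annotated to fin regeneration, a term of 5 other listed genes, 4 of them higher, as were 68.1% of all listed genes.

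**Figure D4:**
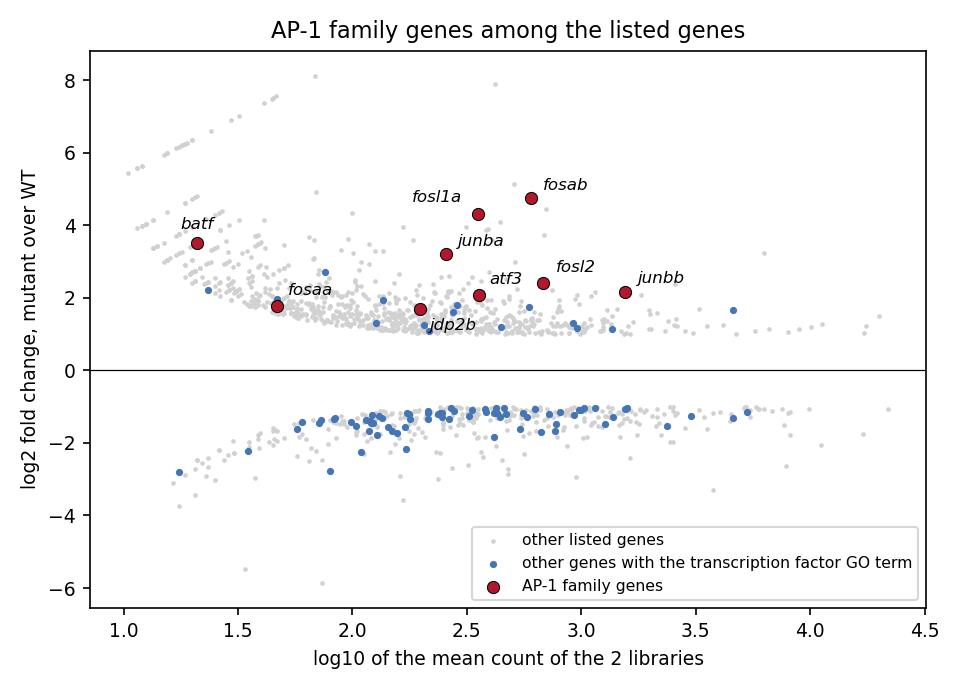
Log2 fold change (mutant over WT) of all 1287 listed genes against the log10 of their mean read count in the 2 libraries; red points are the 9 AP-1 family genes and blue points the 87 other genes with the transcription factor term. The empty band around 0 is the authors' threshold; the red points all lie above it, while 72 of the 87 blue points lie below.

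Some other bZIP genes were matched to a listed gene. The lists here and below were matched by symbol, which 614 of the 1287 listed genes received. For some list genes the symbol was assigned by hand from the product name. A list gene whose row received no symbol would be missed. The share of all zebrafish genes that were listed was not computed. The number of genes of a list that were listed therefore has no background here. Of 28 ATF and CREB family genes on a list from textbook knowledge, 5 were listed, all higher, as were 68.1% of all listed genes. Their median log2 fold change was 1.75, beside 1.31 over all listed genes and 1.61 over the higher ones. Besides atf3, batf and jdp2b, which are members already counted above, these were crema and creb3l3a. crema, a cAMP-response factor, had 271 WT and 905 mutant reads, 3.37-fold more (2.94 to 3.88). creb3l3a, a membrane-bound factor of liver and gut in mammals, was 2.87-fold higher (2.41 to 3.44). Of 40 genes of other bZIP families 3 were listed: cebpd was 2.48-fold higher (2.24 to 2.75), ddit3 2.14-fold higher (1.75 to 2.64) and nfil3-2 2.17-fold lower (1.81 to 2.62). On scales centred on the listed genes themselves, with their median or their 30% trimmed mean log2 ratio set to 0, ddit3 was lower. Of all listed genes, 643 and 705 were higher on these 2 scales, against 876 on the scale used here.

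Some immediate-early genes apart from AP-1 were matched to a listed gene. Of 41 on the list, 4 were listed and all 4 were higher, as were 68.1% of all listed genes. Their median log2 fold change was 1.56, beside 1.31 over all listed genes and 1.61 over the higher ones. socs3b, a feedback inhibitor of cytokine signalling, had 265 WT and 1232 mutant reads, 4.70-fold more (4.11 to 5.38). egr1, a zinc finger gene induced by the same growth factor signals as fos, had 123 and 432 reads, 3.55-fold more (2.90 to 4.37). ccn1l1 was 2.49-fold higher (1.80 to 3.48) and ier2a 2.46-fold higher (2.15 to 2.83); on the scale centred on the median listed gene ier2a was lower. The folds of fosab, fosl1a and junba were above those of all 4.

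The MAP kinase and JNK pathway carries signals to AP-1 by phosphorylating Jun and Fos proteins and by inducing their genes. Of 67 genes of this pathway 9 were listed, 8 higher and 1 lower, in a table where 68.1% of genes were higher. Their median log2 fold change was 1.32, close to the 1.31 of all listed genes. The highest was gadd45aa, a stress gene whose product activates an upstream kinase, with 49 WT and 718 mutant reads, 14.8-fold more (11.1 to 20.2). map3k2 was 5.61-fold higher (2.73 to 12.98) from 9 WT reads, and gadd45bb 3.20-fold higher (2.49 to 4.15). mapk12b, a p38 kinase gene, was 3.12-fold lower (2.69 to 3.64), whereas its paralogue mapk12a was higher, a direction that turned on both scales centred on the listed genes, as did that of map3k5.

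Of 57 genes on a list of possible AP-1 targets in other systems, written from general knowledge, 11 were listed. Of these 10 were higher and 1 lower, in a table where 68.1% of genes were higher. Their median log2 fold change was 1.70, beside 1.31 over all listed genes and 1.61 over the higher ones. This list was written with earlier results for some of its members known. Whether each of its genes is an AP-1 target in any system was not checked. Control of its genes by AP-1 in these embryos was not tested. il11a, a cytokine gene that the table names only through its KEGG hit, had 5 WT and 70 mutant reads, 14.1-fold more (5.78 to 44.9). The gelatinase gene mmp9 had 70 and 418 reads, 6.03-fold more (4.67 to 7.88). The chemokine gene cxcl18b was 4.98-fold higher (2.78 to 9.58) and the metalloproteinase inhibitor gene timp2b 3.75-fold higher (3.19 to 4.42). The lower one was the membrane protease gene fap, with 448 WT and 197 mutant reads, 2.25-fold lower (1.90 to 2.68).

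By level in both libraries, the listed gene with a symbol that lay nearest to fosab was cdkn1a, the p21 cell cycle inhibitor gene. Nearness was the distance in log2(FPKM + 0.1) over the 2 libraries, and it describes 2 values per gene. cdkn1a had 1.54 FPKM in the WT and 35.3 FPKM in the mutant library, at a distance of 0.17 from fosab. Next came gadd45aa (2.24 and 33.0 FPKM), cbx7a (1.22 and 18.4 FPKM), cyp24a1 (1.53 and 18.2 FPKM) and junba. Nearest to fosl1a was rbl2, of the retinoblastoma protein family, with 0.822 and 11.1 FPKM at a distance of 0.531. It was followed by il4r.1 (0.466 and 6.71 FPKM), epd (0.929 and 5.55 FPKM), cbx7a and mmp9 (1.37 and 8.08 FPKM).

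Some markers of cell types in the embryo were among the listed genes, all of which differed between the libraries by the authors' selection. Of all listed genes, 68.1% were higher and 31.9% lower. Of 21 erythroid markers 11 were listed, at 13 loci, and all 13 loci were lower. Among them were the globin genes hbae1.1 and hbbe1.1 and the transcription factor gene gata1a. The 13 loci had a summed WT FPKM of 10885 and a summed mutant FPKM of 2597, most of it from globin genes. The globin copies among them may share reads. The 2 listed of 22 neuron markers, elavl3 and neurog1, were lower, with a summed FPKM, most of it elavl3, of 171 and 77.7. Of 20 leukocyte markers 3 were listed: lyz was 2.48-fold lower (2.17 to 2.84), while mmp9 and mmp13a, also on the AP-1 target list, were higher, and the summed level of all 3, most of it lyz, was 92.0 FPKM for WT and 47.8 FPKM for mutant embryos. The 2 listed of 23 epidermis markers, ppl and evpla, were 2.14-fold (2.06 to 2.23) and 2.12-fold (1.96 to 2.29) higher, with a summed FPKM of 32.8 and 70.2, and turned lower on both centred scales. None of the listed markers had 0 reads in either library. The part of cell composition in the AP-1 family values was not tested.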

How the data were processed

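Whole zebrafish embryos gave 2 libraries, 1 per genotype, each matched to its column by the T01 or T02 code of its title. The authors deposited, per the file headers, raw read counts, FPKM, a p-value adjusted for multiple testing (FDR) and a log2 fold change, for selected genes alone. The submitters' processing notes name GRCz10, Bowtie 0.12.2 and Cufflinks; not given in the sources used here were the counting tool, the test and the number of pooled embryos.

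Members were rows whose NR or Swiss-Prot product names a Fos, Fos-related antigen, Jun, AP-1 or ATF factor; 0 further rows were set apart as kinases, binding proteins or adaptor subunits. Symbols came from the zebrafish KEGG hit, updated by gene ID in RefSeq (assembly GRCz12tu, used for names and gene order alone), or from the product name; 614 of 1287 genes received one. junbb, batf and some list members rest on the product name.

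Folds are ratios of counts times 1.01, the factor implied by the authors' log2 fold changes over 391 genes with 200 or more reads in each library. Log2 fold changes add 0.5 counts. Exact 95% (Clopper-Pearson) intervals, and exact conditional intervals for ratios of folds, cover counting error only; without molecular identifiers, reads are not independent molecules. A fold against 0 WT counts used a floor of 3 WT counts. The interval step was run on simulated counts with counting error alone, which is what the interval assumes, and 95.0% of true folds lay inside. That run checks the calculation and cannot show how the interval behaves with more variable reads. No test between genotypes was possible with 1 library each. Members, lists and settings were chosen with earlier results of these data known, and nfil3-2 was added to its list after the table was opened. The text names every member, up to 4 genes from each list with the largest absolute log2 fold change and at least 50 counts in one library, and the 5 genes nearest to fosab and to fosl1a; mapk12a, map3k5, fap, irf1b and hivep2a were named after their values were seen. Python 3.11.15, SciPy 1.17.1 and matplotlib 3.10.9 were used.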

Additional observations from a re-analysis of the deposited data

How the results depend on the processing

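No paired analysis was possible because each genotype has 1 library, and for the same reason no library could be left out. All 9 genes were higher in the mutant library under each of the 7 alternatives tried. For most of these the direction was fixed beforehand. Adding the same amount to both libraries cannot turn it, and the authors' deposited fold changes set the scale used here. The centred scales could have turned a gene. With 2 or 5 counts added, and with the authors' deposited log2 fold change, the log2 fold change of each of the 9 stayed inside its counting interval. The deposited values set the scale used here, so for them this is no independent check. From FPKM with 0.1 added the log2 fold change stayed inside for 8, all but junbb. From FPKM with 1 added it stayed inside for 2, jdp2b and atf3, and left the interval for the other 7. Centring the scale on the listed genes, most of which were selected as higher, lowers every log2 fold change by 1.31 (median set to 0) or 1.22 (30% trimmed mean set to 0). fosab, reported at 4.75, was then 3.44 and 3.53, and fosl1a, reported at 4.31, was 2.999 and 3.08. From FPKM with 1 added, which shrinks low levels, fosab was 3.93 and fosl1a 2.98. In that setting 8 of the 9, all but fosaa, were at least 2-fold higher. At least 4-fold higher were 4 and at least 10-fold 1, and none was 20-fold. At least 2-fold higher were 5 of the 9 on both centred scales, where fosaa, junbb, jdp2b and atf3 stayed higher by less. On those scales 3 of the 9 were at least 4-fold and 1 at least 10-fold higher, and none was 20-fold. The share of all listed genes past each fold was not computed under any of the alternatives. The shares given earlier belong to the folds as first reported and are no background for these counts. On the scale used here, a 4-fold threshold gave 7, and leaving out the 1 gene under 50 reads gave 8 at 2-fold. With the median set to 0, the median log2 fold changes were 2.06 for the Fos list, 0.446 for ATF and CREB and 0.258 for immediate-early genes. They were 0.00923 for the MAP kinase list and 0.397 for the list of possible AP-1 targets. The median of other bZIP families turned from 1.097 to -0.21. Both listed epidermis markers also turned lower there. Depth limits batf and fosaa most.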

Other observations

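Some loci related to AP-1 signalling stand outside the lists and were chosen after their values were seen. map3k20a, the MLT (ZAK) kinase gene, whose product acts upstream of JNK and p38 kinases in mammalian cells, had 19 WT and 183 mutant reads, 9.73-fold more (6.05 to 16.5). A mitogen-activated protein kinase kinase kinase 11-like locus had 23 and 85 reads, 3.73-fold more (2.33 to 6.20). Decay of many short-lived messages, those of fos genes included, is promoted in mammalian cells by proteins of the zinc finger protein 36 family, and loci annotated to this family went both ways. A locus named zinc finger protein 36, C3H1 type-like 1 had 3508 WT and 1167 mutant reads, 2.98-fold lower (2.78 to 3.18). A locus named zinc finger protein 36, C3H type, homolog had 2010 and 903 reads, 2.20-fold lower (2.04 to 2.39). A locus whose closest Swiss-Prot match is a frog C3H1 type-like 2-B protein had 1038 and 2090 reads, 2.03-fold higher (1.89 to 2.19). These are values of 2 libraries, and no relation between these loci and the AP-1 family genes was tested.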
